A study of Homo sapiens with 24 samples.

Results

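Karpas422 is an established human cell line derived from a diffuse large B-cell lymphoma, and its label gives the genotype EZH2 Y641N, a substitution in the histone methyltransferase EZH2. All 24 arrays of the series come from this line. The cells received DMSO, the vehicle, or an EZH2 inhibitor at 5 uM, and RNA was taken after 1, 2, 3 or 6 days, with 3 arrays in each of the 8 groups that the design text calls biological triplicates. The account here concerns the vehicle cells: the 3 arrays of DMSO at day 6 against the 3 arrays of DMSO at day 1, so 6 of the 24 arrays, over 19775 genes. It asks which transcripts moved during the culture without any inhibitor. The 3 DMSO arrays of day 2, the 3 of day 3 and the 6 inhibitor arrays of days 1 and 6 are used beside them. The inhibitor arrays of days 2 and 3 enter the estimate of the spread and the figures, and some day 3 levels are given. All of these cells carry the same EZH2 genotype. Values are log2 expression from Affymetrix U133 Plus 2 arrays, 1 probe set for each gene, and every difference is the day 6 mean minus the day 1 mean, given in log2 units ± the fit's standard error (SE). A gene was called when limma gave it a Benjamini-Hochberg adjusted p under 0.05 across the whole table, and "rose" and "fell" are used of called genes only.

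Cells keep their sterol level by a feedback loop. The transcription factors SREBF1 and SREBF2 are made as membrane proteins of the endoplasmic reticulum, where SCAP and the INSIG proteins hold them while sterol is plentiful. When sterol falls they travel to the Golgi, are cut by the proteases MBTPS1 and MBTPS2, and enter the nucleus, where SREBF2 mainly serves cholesterol synthesis and uptake and SREBF1 mainly serves fatty acid synthesis. Oxysterols act on the sterol level the other way, through the LXR receptors. Some LXR targets export sterol or, as MYLIP does, mark the LDL receptor for degradation.

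Few transcripts separated day 6 from day 1 under DMSO. Of 19775 genes, 57 (0.288%) were called, of which 47 (0.238%) rose and 10 (0.0506%) fell. A fit with the replicate number as a block called 139 higher and 60 lower. Of the genes that rose, 11 did so at least 2-fold, and no gene that fell reached that size. The genes of sterol and fatty acid synthesis led the calls. Among the 52 genes measured of the lists of cholesterol synthesis and uptake, fatty acid synthesis, SREBP regulators and sterol export, 16 rose and none fell, while the median difference of all genes was -0.01. The other 31 genes that rose included a chemokine, immune receptors, an amino acid transporter and a phosphatase gene of the immediate early class. In bulk RNA, a change in the share of cells of one kind and a change in RNA per cell cannot be told apart, and neither can the day and any other feature of the harvest that differed between days. The sources used here give no passage, density or medium for the cultures, and no batch.

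**Figure D1:**
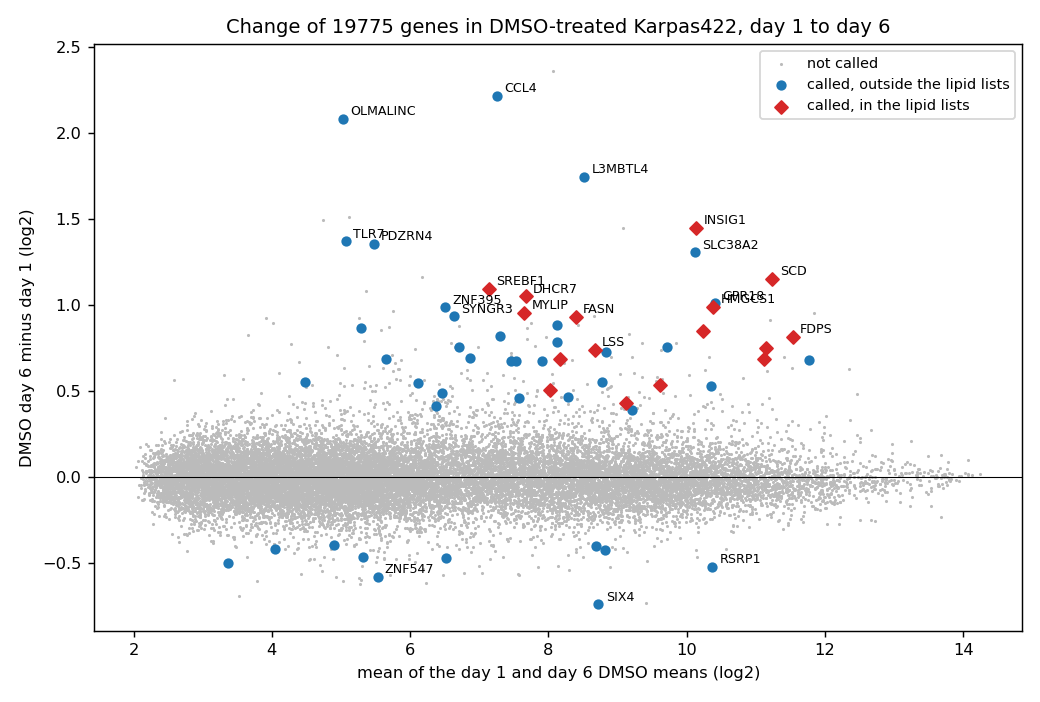
Each point is a gene, placed by the mean of its day 1 and day 6 DMSO levels (log2, horizontal) and by its DMSO day 6 minus day 1 difference (log2, vertical). Grey points were not called, and the 57 called genes are blue circles or, for the 16 in the lipid lists, red diamonds, all of which lie above 0.

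The differences behind the 57 calls rest on 3 arrays per day, and each gene's spread was estimated over all 24 arrays. In a fit of the 6 DMSO arrays alone, 25 of the 57 genes remained called. In each of the 57 genes the day 6 arrays lay wholly above or wholly below the day 1 arrays, an arrangement that 1237 genes showed upward and 1578 downward over the whole table. At an unadjusted p under 0.05 there were 1681 genes. When each of the 6 arrays was left out in turn, 18 of the 57 genes remained called every time, all of them higher at day 6, and 12 of these 18 belong to the lipid lists. Leaving out day 6 array 1 cost most calls, with 22 of the 57 genes kept, and leaving out day 1 array 2 cost fewest, with 37 kept. For each gene below that lost its call in this way, the largest adjusted p of the 6 fits is given with the array whose loss gave it. No detection calls were made, and some called genes had day 1 means below 5.82, the median gene level over the 24 arrays: OLMALINC at 3.99, SLC25A43 at 4.20, TLR7 at 4.39, PDZRN4 at 4.80, CYSLTR1 at 4.86 and AGO4 at 5.30 among those that rose, and SPMAP1 at 3.61, WNT9B at 4.25, CFAP184 at 5.10 and EDRF1-DT at 5.54 among those that fell. Their day 1 levels were not shown to be above background. Where a called gene had further probe sets, these were divided in sign for IDI1, CREM, DUSP1, CYSLTR1, TMC8, LDLRAD4, METAP1D and EDRF1-DT, and genes whose further probe sets all had the opposite sign are named where they are described.

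Of 9 B cell markers measured, none was called, and most stood well above the median gene on both days. A further marker of the list is not analysed here. The mean of POU2AF1, a B cell coactivator, was 13.10 at day 1 and 13.11 at day 6, that of BCL6, the germinal centre repressor, 12.59 and 12.68, and that of PAX5, the B cell identity factor, 11.65 and 11.93. CD79B stood at -0.18 ± 0.11, CD38 at -0.12 ± 0.21, MME at -0.06 ± 0.08, CD79A at 0.05 ± 0.10 and EBF1 at 0.16 ± 0.07. CD38 was the one marker below the median gene, with means of 5.34 and 5.22. MS4A1, which encodes CD20, had the largest difference of the 9 markers checked, 0.48 ± 0.11, and missed the threshold (adjusted p = 0.0588). Of the 17 T and NK, 14 myeloid, 17 stromal, endothelial and epithelial and 8 erythroid and platelet markers measured, none was called, and the 4 medians lay between -0.07 and -0.01. EZH2 stood at 10.33, 10.33 and 9.97 in the day 1 arrays and 10.31, 10.18 and 10.13 in the day 6 arrays. Its difference was -0.002 ± 0.12 (adjusted p = 0.998), with the ranges of both days overlapping.

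The SREBP regulators gave 3 genes that rose out of 8 measured, against 0.238% of all genes. INSIG1 encodes the retention protein that holds the SREBP precursors back and is itself a classical SREBP target. It measured 9.55, 9.45 and 9.23 in the day 1 arrays and 10.99, 10.81 and 10.78 in the day 6 arrays. The lowest day 6 array was above the highest day 1 array by 1.23. INSIG1 rose by 1.45 ± 0.12, which is 2.73-fold (adjusted p = 2.35e-06), the lowest adjusted p of the comparison, and both other INSIG1 probe sets were called in the same direction.

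SREBF1, the factor that mainly serves fatty acid genes, measured 6.50, 6.80 and 6.48 in the day 1 arrays and 7.69, 7.67 and 7.71 in the day 6 arrays. Its 3 day 6 arrays were nearly equal, and day 1 array 2 was the highest of its group. SREBF1 rose by 1.10 ± 0.11 (adjusted p = 6.05e-06). SREBF2, the factor of the cholesterol genes, measured 7.24, 7.34 and 7.30 in the day 1 arrays and 7.67, 7.74 and 7.78 in the day 6 arrays, so the day 6 arrays were all higher, but its difference of 0.44 ± 0.10 missed the threshold (adjusted p = 0.0588). The genes that carry and cut the precursors showed little difference: SCAP at -0.00 ± 0.08, MBTPS1 at -0.06 ± 0.07, MBTPS2 at 0.05 ± 0.08 and INSIG2 at -0.09 ± 0.15, each with overlapping arrays and none called.

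MYLIP, the ubiquitin ligase that removes the LDL receptor and is induced by LXR, measured 6.97, 7.33 and 7.22 in the day 1 arrays and 8.27, 8.25 and 7.86 in the day 6 arrays. Day 6 array 3 was the lowest of its group and still stood above all day 1 arrays. MYLIP rose by 0.95 ± 0.13 (adjusted p = 0.000602), and all 5 of its other probe sets had the same sign, 2 of them called. It was the only called gene of the 9 measured in the sterol export list (0.238% of all genes rose). ABCA1, the cholesterol exporter that LXR also induces, measured 4.71, 4.73 and 5.35 in the day 1 arrays and 6.46, 5.36 and 5.35 in the day 6 arrays, with day 6 array 1 far above the others, and its 0.79 ± 0.26 was not called (adjusted p = 0.307). ABCG1 at 0.01 ± 0.13 and the LXR gene NR1H3 at -0.04 ± 0.15 were not called either.

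Cholesterol synthesis begins with acetyl units joined by ACAT2 and HMGCS1, passes through mevalonate to the isoprenoids made by IDI1 and FDPS, and closes a sterol ring with LSS that later enzymes trim. Of 23 genes measured of the 29 in the list of synthesis and uptake, 11 rose, against 0.238% of all genes, and 19 had all day 6 arrays above all day 1 arrays, against 6.26% of all genes. The list's median difference was 0.51. The rest of that list is not analysed here. The 11 included genes of the early, isoprenoid and later steps, while other genes of the route were not called. INSIG1 is 1 of the 11 and is also counted among the SREBP regulators. MYLIP is likewise counted in both the regulator and the sterol export lists.

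At the head of the route, HMGCS1, the synthase that makes HMG-CoA, measured 10.05, 9.89 and 9.73 in the day 1 arrays and 11.12, 10.86 and 10.65 in the day 6 arrays and rose by 0.99 ± 0.12 (adjusted p = 0.000311). ACAT2, the thiolase before it, measured 9.84, 9.67 and 9.92 in the day 1 arrays and 10.62, 10.69 and 10.66 in the day 6 arrays and rose by 0.85 ± 0.14 (adjusted p = 0.00427). In both genes the gap between the days was wider than either group's range. Of the kinases that follow, MVK stood at 0.18 ± 0.07 (adjusted p = 0.472) and PMVK at -0.10 ± 0.11 (adjusted p = 0.876), and neither was called, nor was the decarboxylase MVD at 0.26 ± 0.20.

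In the isoprenoid steps, IDI1, the isopentenyl isomerase, measured 10.93, 10.83 and 10.57 in the day 1 arrays and 11.57, 11.42 and 11.39 in the day 6 arrays and rose by 0.69 ± 0.11 (adjusted p = 0.00467). FDPS, which makes farnesyl pyrophosphate, measured 11.23, 11.04 and 11.10 in the day 1 arrays and at least 11.90 in every day 6 array, and rose by 0.82 ± 0.12 (adjusted p = 0.00153). The day 6 arrays of FDPS stood 0.67 above the highest day 1 array. GGPS1, which draws farnesyl units toward protein prenylation instead of sterols, had a difference of 0.28 ± 0.10 and was not called (adjusted p = 0.387).

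Among the later, ring-forming and trimming steps, LSS, the cyclase, measured 8.18, 8.34 and 8.37 in the day 1 arrays and 8.99, 9.04 and 9.08 in the day 6 arrays and rose by 0.74 ± 0.12 (adjusted p = 0.00474). DHCR7, which completes cholesterol in one branch, measured 7.12, 7.11 and 7.21 in the day 1 arrays and 8.15, 8.20 and 8.24 in the day 6 arrays and rose by 1.05 ± 0.15 (adjusted p = 0.000858). HSD17B7, a ketosteroid reductase of the route, measured 9.36, 9.34 and 9.34 in the day 1 arrays and 9.83, 9.91 and 9.90 in the day 6 arrays and rose by 0.53 ± 0.07 (adjusted p = 0.000602). Its day 1 arrays differed by at most 0.017 and its day 6 arrays by at most 0.083, so that a modest rise stood outside the spread.

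MSMO1, the sterol methyl oxidase, measured 11.04, 10.75 and 10.53 in the day 1 arrays and 11.60, 11.62 and 11.35 in the day 6 arrays and rose by 0.75 ± 0.13 (adjusted p = 0.0106). SC5D, a desaturase near the end of the route, measured 7.82, 7.79 and 7.71 in the day 1 arrays and 8.37, 8.18 and 8.29 in the day 6 arrays and rose by 0.51 ± 0.10 (adjusted p = 0.0204), although its other probe set had the opposite sign. STARD4, which carries sterol between membranes, measured 7.94, 7.83 and 7.72 in the day 1 arrays and 8.73, 8.33 and 8.49 in the day 6 arrays and rose by 0.69 ± 0.12 (adjusted p = 0.00712). The calls of these 3 genes depended on single arrays: the largest adjusted p was 0.0892 for MSMO1, 0.149 for SC5D and 0.078 for STARD4, each without day 6 array 1. EBP at 0.70 ± 0.16 (adjusted p = 0.0588), SQLE at 0.48 ± 0.13 (adjusted p = 0.153), NSDHL at 0.43 ± 0.11 (adjusted p = 0.108) and TM7SF2 at 0.38 ± 0.18 (adjusted p = 0.565) had all day 6 arrays above all day 1 arrays and were not called.

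Fatty acid synthesis gave 3 genes that rose out of 15 measured, against 0.238% of all genes, with a list median of 0.20. SCD, the desaturase that makes monounsaturated fatty acids, measured 10.69, 10.78 and 10.53 in the day 1 arrays and 11.86, 11.82 and 11.77 in the day 6 arrays. The day 6 arrays of SCD agreed within 0.093, and the lowest of them was 0.99 above the highest day 1 array. SCD rose by 1.15 ± 0.11 (adjusted p = 3.72e-06), and its 3 other probe sets were all called the same way. FASN, the fatty acid synthase, measured 7.83, 7.93 and 8.04 in the day 1 arrays and 8.79, 8.71 and 9.09 in the day 6 arrays and rose by 0.93 ± 0.13 (adjusted p = 0.000602), although its other probe set had the opposite sign and was not called.

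ACACA, the carboxylase that makes malonyl units for FASN, measured 8.77, 9.03 and 8.94 in the day 1 arrays and 9.37, 9.30 and 9.35 in the day 6 arrays and rose by 0.43 ± 0.08 (adjusted p = 0.0108, and 0.137 without day 1 array 1). LPIN1, a phosphatidate phosphatase and SREBP target, had 0.62 ± 0.13 (adjusted p = 0.0513), which missed the threshold. ELOVL6 at 0.46 ± 0.11, FADS2 at 0.51 ± 0.13 and ACLY at 0.23 ± 0.10 also had every day 6 array above every day 1 array and were not called. ACACB at -0.12 ± 0.10 and ACSS2 at -0.20 ± 0.10 had negative differences with overlapping arrays and were not called.

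The time between was covered by the DMSO arrays of days 2 and 3, whose differences share the day 1 arrays with the comparison above. INSIG1 measured 10.03, 10.47 and 10.18 at day 2 and 10.83, 10.95 and 10.82 at day 3. Its differences from day 1 were 0.81, 1.45 and 1.45 at days 2, 3 and 6. The same 3 differences were 0.65, 1.09 and 1.15 for SCD, 0.64, 0.96 and 1.10 for SREBF1, 0.33, 0.85 and 0.99 for HMGCS1 and 0.29, 0.57 and 0.93 for FASN. The first 4 of these genes thus stood near their day 6 level by day 3, while FASN was still lower then. Over the whole table, 3 genes (0.0152%) rose and 2 (0.0101%) fell by day 2, and the 3 that rose were INSIG1, SCD and SREBF1. By day 3, 75 genes (0.379%) had risen and 15 (0.0759%) had fallen. Between day 3 and day 6 no gene was called (0%), with 882 at an unadjusted limma p under 0.05. The median of the cholesterol list relative to the day 1 mean was -0.03, 0.26 and 0.28 in the 3 arrays of day 2, between 0.40 and 0.49 in those of day 3, and 0.49, 0.45 and 0.52 in those of day 6.

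**Figure D2:**
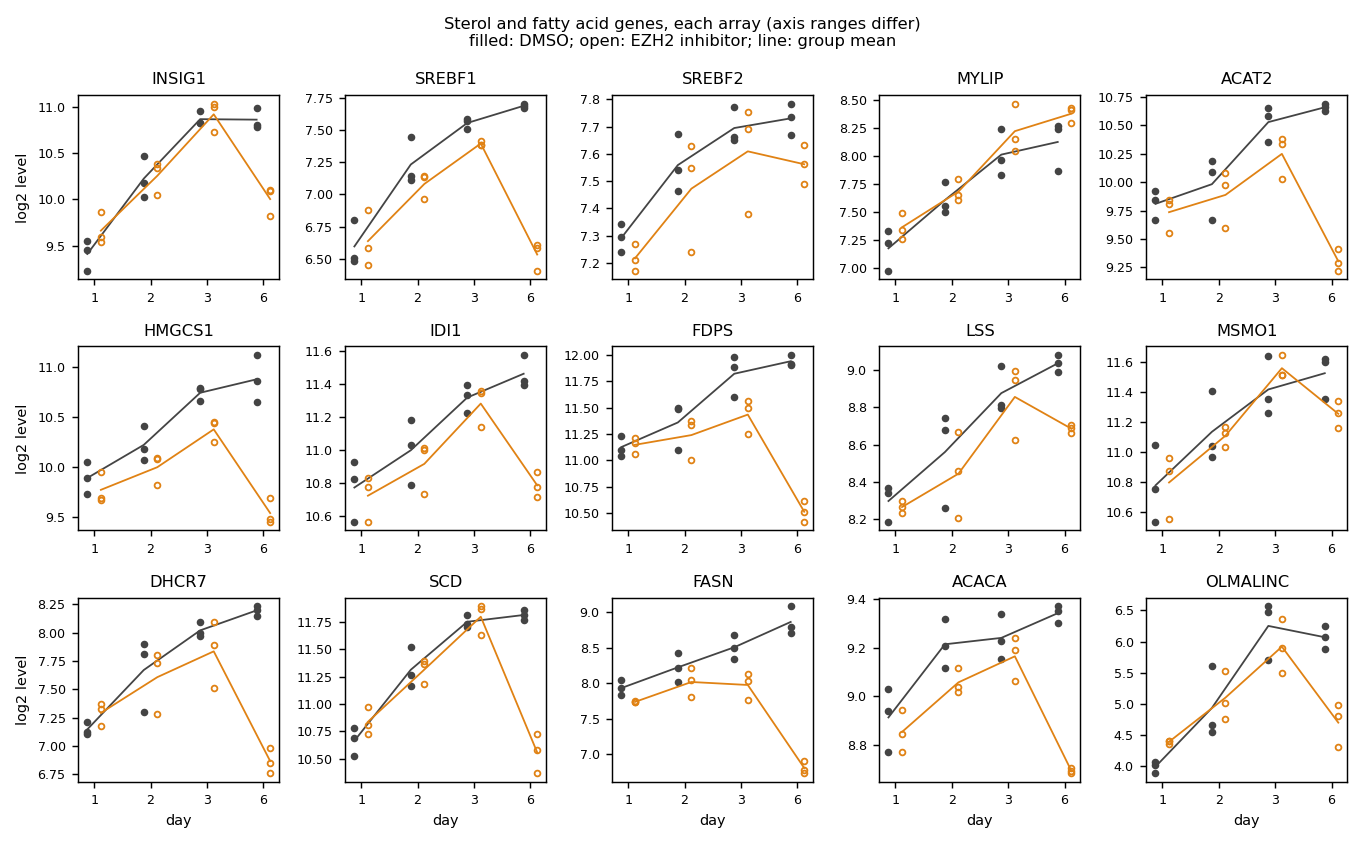
Each panel shows 1 gene, with the log2 level of every array against the day, DMSO as filled grey points and the inhibitor as open orange points, lines joining group means, and vertical ranges that differ between panels. The DMSO levels climb from day 1 to day 3 and stay high at day 6, while most inhibitor levels are lower at day 6 than at day 3, with MYLIP as an exception.

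The sequences around the RefSeq starts of these genes were compared with those of other genes. SREBP factors bind sterol elements, of which TCACNCCAC is one form, together with the factor NFY at CCAAT. Both motifs were searched on both strands of windows from 250 bases before to 50 after each RefSeq start (GRCh38.p14), which were found for 14 of the 16 called lipid genes and for 15384 of all genes tested. CCAAT was present in 11 of the 14 windows (78.6%), against 36.1% of all tested genes, 6 of 24 windows (25.0%) of the other genes that rose, 4 of 8 (50%) of those that fell and 17 of 34 (50%) of the lipid genes not called. TCACNCCAC was in none of the 14 windows, in 1 of 34 (2.94%) of the lipid genes not called and in 1.09% of all. None of the other genes that rose and none of those that fell had it in their windows. A shorter form, TCACNCCA, lies within the first and was chosen after the first had been counted. It was in 1 of the 14 (7.14%), in 3 of 34 (8.82%) of the lipid genes not called and in 3.59% of all. Of the other genes that rose, 1 of 24 (4.17%) had it, and of those that fell none. The 250 bases before the start are given for HMGCS1 and FDPS, which carry several copies of CCAAT. They are also given for MSMO1, which has the short sterol form among 4 copies of CCAAT. SREBF2, which was not called, is added because its window holds the full form. Capitals mark every match of these motifs, and ATTGG is CCAAT on the other strand. HMGCS1 lies at chr5:43313413-43313662 on the minus strand, FDPS at chr1:155308616-155308865, MSMO1 at chr4:165327419-165327668 and SREBF2 at chr22:41832855-41833104, these 3 on the plus strand.
HMGCS1: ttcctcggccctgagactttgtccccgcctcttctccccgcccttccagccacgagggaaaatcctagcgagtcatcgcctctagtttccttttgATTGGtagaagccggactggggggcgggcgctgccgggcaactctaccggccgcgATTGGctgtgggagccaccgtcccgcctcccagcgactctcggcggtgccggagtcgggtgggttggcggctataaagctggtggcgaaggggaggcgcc
FDPS: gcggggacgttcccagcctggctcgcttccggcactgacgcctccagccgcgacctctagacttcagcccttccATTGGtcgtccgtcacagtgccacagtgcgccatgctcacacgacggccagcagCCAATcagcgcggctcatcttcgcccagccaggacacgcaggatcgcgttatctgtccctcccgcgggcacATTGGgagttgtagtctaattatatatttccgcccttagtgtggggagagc
MSMO1: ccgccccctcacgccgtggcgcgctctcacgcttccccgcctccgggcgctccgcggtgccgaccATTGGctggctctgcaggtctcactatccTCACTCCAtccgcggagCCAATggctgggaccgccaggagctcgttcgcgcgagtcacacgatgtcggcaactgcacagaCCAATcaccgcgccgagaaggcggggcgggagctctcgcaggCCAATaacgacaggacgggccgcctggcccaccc
SREBF2: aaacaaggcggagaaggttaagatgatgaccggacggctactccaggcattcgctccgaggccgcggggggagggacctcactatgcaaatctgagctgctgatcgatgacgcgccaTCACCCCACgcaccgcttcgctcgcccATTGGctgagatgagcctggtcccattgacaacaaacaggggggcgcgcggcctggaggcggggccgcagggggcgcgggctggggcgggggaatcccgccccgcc
The full form in SREBF2 starts at -133 and the short form in MSMO1 at -156, counted from the base before the start as -1. FDPS, whose transcript rose, has CCAAT at -176, -122 and -51, and HMGCS1 at -155 and -100. A match of letters in a window is a description of the sequence, and binding was not measured.

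OLMALINC, RUSC1-AS1 and MMAB, grouped by position after their values were seen, lie beside or over lipid genes. OLMALINC is a long noncoding RNA gene that is the direct neighbour of SCD on chromosome 10, with no annotated gene between them. OLMALINC measured 3.88, 4.06 and 4.02 in the day 1 arrays and 6.24, 5.89 and 6.08 in the day 6 arrays, a gap of 1.83 between the days. It rose by 2.08 ± 0.27, which is 4.23-fold (adjusted p = 0.000411), and its differences at days 2 and 3 were 0.94 and 2.26. The fold is that of the fitted values, from a day 1 level not shown to be above background. RUSC1-AS1, a noncoding gene on chromosome 1, overlaps FDPS in the RefSeq annotation. It measured 7.70, 7.76 and 7.71 in the day 1 arrays and 8.34, 8.69 and 8.51 in the day 6 arrays and rose by 0.79 ± 0.13 (adjusted p = 0.00622, and 0.0509 without day 6 array 2). Its second probe set had the opposite sign, and whether its probes also read FDPS transcripts was not tested.

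MMAB, a mitochondrial enzyme of vitamin B12 metabolism, overlaps MVK in the annotation of chromosome 12. It measured 8.01, 7.97 and 8.16 in the day 1 arrays and 8.54, 8.53 and 8.48 in the day 6 arrays and rose by 0.47 ± 0.10 (adjusted p = 0.0336, and 0.194 without day 1 array 1). Both other MMAB probe sets were called in the same direction. MVK, the mevalonate kinase, was not called.

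The members of the amino acid stress list are targets of the transcription factor ATF4 when amino acids are short. Of 38 measured, 1 rose, against 0.238% of all genes. SLC38A2, a sodium-coupled transporter of neutral amino acids, measured 9.39, 9.36 and 9.63 in the day 1 arrays and 10.99, 10.83 and 10.48 in the day 6 arrays. It rose by 1.31 ± 0.26, which is 2.47-fold (adjusted p = 0.0239, and 0.16 without day 6 array 1), and both other probe sets were called in the same direction. ATF4 itself measured 11.08, 11.50 and 11.51 in the day 1 arrays and 12.34, 12.33 and 12.28 in the day 6 arrays, and its difference of 0.95 ± 0.22 missed the threshold (adjusted p = 0.0838). The list's median was 0.28 with no member called lower, 18 members had all day 6 arrays above all day 1 arrays (6.26% of all genes), and 14 were higher at an unadjusted limma p under 0.05 (764 of all 19775 genes).

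This list varied most at day 3. SLC38A2 measured 10.11, 11.77 and 11.56 and ASNS, the asparagine synthetase, 11.01, 13.02 and 12.60 in the 3 DMSO arrays of day 3, so that array 1 stood well below the other two. The list's median in those arrays was 0.02, 0.90 and 0.63 above the day 1 mean, against 0.32, 0.31 and 0.20 in the day 6 arrays. At day 6 ASNS was 12.15, 11.66 and 11.47 and its difference of 0.70 ± 0.30 was not called (adjusted p = 0.5). CHAC1, a glutathione-degrading stress gene, had 1.16 ± 0.51 (adjusted p = 0.516), and its day 3 arrays, at 5.21, 8.70 and 8.30, enter its standard error, since all 8 groups share 1 estimate of the spread per gene.

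Immediate early genes are transcribed within minutes of a stimulus. DUSP1, a phosphatase that switches off MAP kinases, measured 7.13, 7.41 and 7.06 in the day 1 arrays and 8.12, 7.93 and 7.57 in the day 6 arrays and rose by 0.67 ± 0.12 (adjusted p = 0.0106, and 0.113 without day 6 array 1). It was the only called gene of 30 measured (0.238% of all genes rose), and 12 members had all day 6 arrays above all day 1 arrays (6.26% of all genes). The transcription factor EGR1 measured 7.06, 7.12 and 6.46 in the day 1 arrays and 9.91, 8.71 and 9.09 in the day 6 arrays, a difference of 2.36 ± 0.60 that was the largest of the whole table but not called (adjusted p = 0.117). FOS at 1.51 ± 0.37 (adjusted p = 0.0986) and EGR3 at 1.49 ± 0.36 (adjusted p = 0.104) were not called either. In FOS and EGR3 day 6 array 1, at 6.73 and 6.64, was the highest of the 3, and this array also held the highest CCL4 value.

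CCL4, a chemokine that activated B cells release, measured 6.15, 6.21 and 6.09 in the day 1 arrays and 9.34, 7.57 and 8.19 in the day 6 arrays. The day 1 arrays differed by at most 0.13, whereas the day 6 arrays spread over 1.77. CCL4 rose by 2.22 ± 0.40, which is 4.65-fold and the largest rise among called genes, with an adjusted p of 0.0106 and of 0.112 without day 6 array 1. At day 3 it measured 6.89, 9.07 and 8.19 and at day 2 6.18, 6.24 and 5.93. It was the only called gene among 28 genes of the NF-kB and CD40 response, whose median was 0.04. The same held for the 32 cytokine and chemokine genes, whose median was 0.0009 (0.238% of all genes rose).

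TLR7, GPR18, IRAG2, CD53, RHOH and CD58, described next by their known roles in blood cells, were put together after their values were seen. Of the gene lists, the 31 B lineage genes and the 29 adhesion and migration genes held 1 called gene each (0.238% of all genes rose). The 25 germinal centre genes held none. TLR7, the endosomal sensor of single-stranded RNA, measured 4.15, 4.57 and 4.46 in the day 1 arrays and 5.95, 5.47 and 5.85 in the day 6 arrays and rose by 1.37 ± 0.27 (adjusted p = 0.0262, and 0.195 without day 1 array 1). GPR18, a G protein-coupled receptor of lymphocytes, measured 9.83, 10.08 and 9.79 in the day 1 arrays and 11.04, 10.96 and 10.73 in the day 6 arrays and rose by 1.01 ± 0.17 (adjusted p = 0.00491). IRAG2, an endoplasmic reticulum protein of germinal centre B cells also known as LRMP, measured 11.43, 11.50 and 11.34 in the day 1 arrays and 12.27, 11.94 and 12.11 in the day 6 arrays and rose by 0.68 ± 0.09 (adjusted p = 0.000602). GPR18 and IRAG2 remained called with any 1 of the 6 arrays left out.

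CD53, a tetraspanin of leukocytes, measured 9.42, 9.42 and 9.16 in the day 1 arrays and 10.17, 10.02 and 10.06 in the day 6 arrays and rose by 0.75 ± 0.13 (adjusted p = 0.00808, and 0.0709 without day 6 array 1). It was the only called gene of the B lineage list, in which 20 of 31 differences were positive (9209 of all 19775 genes). The list's median was 0.08, and its differences ran from -0.42 to 0.75. At the low end, CD52 at -0.42 ± 0.47 (adjusted p = 0.876) and TCL1A at -0.32 ± 0.31 (adjusted p = 0.837) were not called. At the high end, FCRLA at 0.43 ± 0.09 (adjusted p = 0.0561), BLNK at 0.58 ± 0.15 (adjusted p = 0.148) and CD22 at 0.66 ± 0.18 (adjusted p = 0.149) were not called. RHOH, a small GTPase of blood cells, measured 8.42, 8.50 and 8.48 in the day 1 arrays and 9.19, 9.18 and 9.21 in the day 6 arrays, with day 6 arrays that differed by at most 0.027, and rose by 0.72 ± 0.14 (adjusted p = 0.0169). RHOH lost its call whichever of the 6 arrays was left out (largest adjusted p = 0.123 without day 1 array 1). CD58, the ligand of CD2 on T cells, measured 5.71, 5.75 and 6.04 in the day 1 arrays and 6.32, 6.47 and 6.36 in the day 6 arrays and rose by 0.55 ± 0.10 (adjusted p = 0.0169, and 0.166 without day 1 array 1).

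L3MBTL4, a gene of the malignant brain tumour domain family of chromatin readers, measured 7.17, 7.97 and 7.80 in the day 1 arrays and 9.47, 9.53 and 9.17 in the day 6 arrays. It rose by 1.74 ± 0.30 (adjusted p = 0.00883, and 0.103 without day 1 array 1), but its second probe set had the opposite sign. PDZRN4, a PDZ and RING domain gene, measured 4.34, 4.78 and 5.27 in the day 1 arrays and 6.20, 6.15 and 6.11 in the day 6 arrays and rose by 1.36 ± 0.28 (adjusted p = 0.0303, and 0.26 without day 1 array 1). ZNF395, a zinc finger gene of the hypoxia list, measured 5.76, 5.86 and 6.42 in the day 1 arrays and 7.24, 6.69 and 7.06 in the day 6 arrays and rose by 0.99 ± 0.21 (adjusted p = 0.0455, and 0.294 without day 1 array 1). Neither of the other 2 ZNF395 probe sets had the same sign. It was the only called gene of 25 in the hypoxia list, whose median was 0.09 (0.238% of all genes rose).

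SYNGR3, a synaptogyrin of vesicle membranes, measured 5.84, 6.31 and 6.35 in the day 1 arrays and 6.98, 7.28 and 7.05 in the day 6 arrays and rose by 0.93 ± 0.13 (adjusted p = 0.000602). COL23A1, a transmembrane collagen, measured 6.10, 6.45 and 6.44 in the day 1 arrays and 7.08, 7.06 and 7.11 in the day 6 arrays and rose by 0.76 ± 0.11 (adjusted p = 0.00206). CREM, a modulator of cyclic AMP-driven transcription, measured 6.57, 6.51 and 6.46 in the day 1 arrays and 7.18, 7.45 and 6.99 in the day 6 arrays and rose by 0.69 ± 0.11 (adjusted p = 0.00474). All of them remained called with any 1 of the 6 arrays left out.

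The remaining genes that rose, chosen for mention after their values were seen, had differences between 0.39 and 0.89. Among them CYSLTR1, the receptor for cysteinyl leukotrienes, rose by 0.87 ± 0.18, MAP3K7CL by 0.89 ± 0.17, the adaptor gene BCAR3 by 0.82 ± 0.16, the Argonaute gene AGO4 by 0.69 ± 0.12, the GTPase gene RAB33A by 0.68 ± 0.14 and TMC8 by 0.67 ± 0.14. AGO4 is represented by 3 further probe sets, none with the same sign. Smaller rises were those of SLC25A43, a mitochondrial carrier gene (0.55), the nuclear envelope gene NRM (0.55), LDLRAD4 (0.53), the chloride transporter gene CLCN6 (0.49), the hexose transporter gene SLC2A6 (0.46), DDX19B, an RNA helicase of mRNA export (0.41), and UBE2J1, a ubiquitin-conjugating enzyme of the endoplasmic reticulum (0.39). Each of the 13 genes named in these sentences lost its call in at least 2 of the 6 fits with 1 array left out. Without day 1 array 1 the adjusted p was 0.26 for CYSLTR1, 0.185 for RAB33A, 0.165 for SLC25A43, 0.0756 for NRM, 0.188 for LDLRAD4, 0.273 for SLC2A6 and 0.3 for DDX19B. It was 0.142 for MAP3K7CL and 0.209 for BCAR3 without day 6 array 1, 0.0743 for CLCN6 and 0.0923 for UBE2J1 without day 6 array 3, 0.0944 for AGO4 without day 1 array 2 and 0.181 for TMC8 without day 1 array 3. These are the largest of each gene's 6 values.

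**Figure D3:**
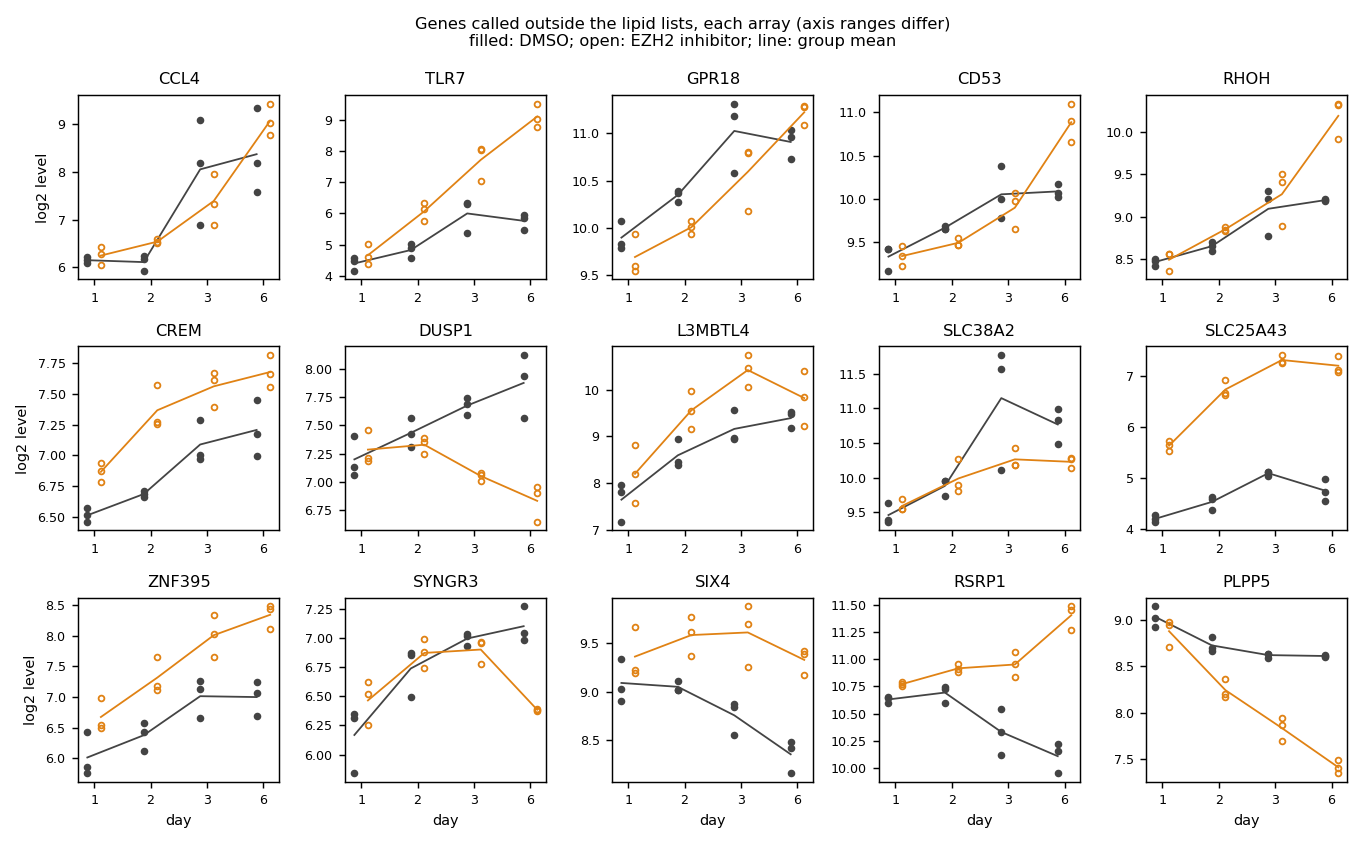
Each panel shows 1 gene called outside the lipid lists, with the log2 level of every array against the day, DMSO as filled grey points and the inhibitor as open orange points, lines joining group means, and vertical ranges that differ between panels. CCL4, TLR7 and SLC38A2 have widely spread DMSO arrays at day 3, and the DMSO means of SIX4 and RSRP1 are lowest at day 6, while that of PLPP5 is 8.62 at day 3 and 8.61 at day 6.

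The 10 genes that fell had smaller differences, and none remained called in all 6 fits with 1 array left out. SIX4, a homeobox gene, measured 9.03, 8.91 and 9.34 in the day 1 arrays and 8.16, 8.42 and 8.48 in the day 6 arrays and fell by 0.74 ± 0.16 (adjusted p = 0.0388, and 0.261 without day 6 array 1). RSRP1, which encodes an arginine- and serine-rich protein, measured 10.64, 10.60 and 10.65 in the day 1 arrays and 9.95, 10.22 and 10.16 in the day 6 arrays and fell by 0.52 ± 0.09 (adjusted p = 0.0106, and 0.118 without day 6 array 1). PLPP5, a lipid phosphate phosphatase, measured 9.02, 8.93 and 9.15 in the day 1 arrays and 8.60, 8.62 and 8.62 in the day 6 arrays, with day 6 arrays that differed by at most 0.021, and fell by 0.42 ± 0.08 (adjusted p = 0.0258, and 0.165 without day 1 array 3).

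METAP1D, a mitochondrial methionine aminopeptidase, fell by 0.47 ± 0.09, the zinc finger gene ZNF547 by 0.58 ± 0.12, and SLC35B3, a transporter of the sulphate donor PAPS, by 0.40 ± 0.08, although its other probe set had the opposite sign. SPMAP1, WNT9B, CFAP184 and the divergent transcript EDRF1-DT fell by 0.50 ± 0.10, 0.42 ± 0.08, 0.39 ± 0.08 and 0.46 ± 0.09. Their largest adjusted p with 1 array left out was 0.161 for METAP1D, 0.247 for ZNF547, 0.205 for SLC35B3, 0.268 for SPMAP1, 0.161 for WNT9B, 0.215 for CFAP184 and 0.179 for EDRF1-DT. CFAP184 gave its value without day 6 array 2, EDRF1-DT without day 6 array 1, and the other 5 without day 1 array 1.

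Interferon-stimulated genes gave no call among 46 measured, although 44 had a positive difference (9209 of all 19775 genes) and the median was 0.41. At an unadjusted limma p under 0.05, 12 were higher and 1 was lower, against 764 higher and 917 lower of all genes. IFI6, an interferon-induced membrane protein gene, had the largest difference, 0.91 ± 0.32 (adjusted p = 0.371). MX1, an antiviral GTPase, measured 10.59, 11.39 and 11.64 in the day 1 arrays and 11.56, 11.90 and 12.06 in the day 6 arrays and was not called at 0.63 ± 0.30 (adjusted p = 0.565). The list's median in each array, relative to the day 1 mean, was -0.30, 0.02 and 0.28 at day 1 and 0.09, 0.37 and 0.63 at day 6, so the ranges of both days overlapped. Matched by replicate number, which was not taken to pair the samples, each day 6 median was above the day 1 median.

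**Figure D4:**
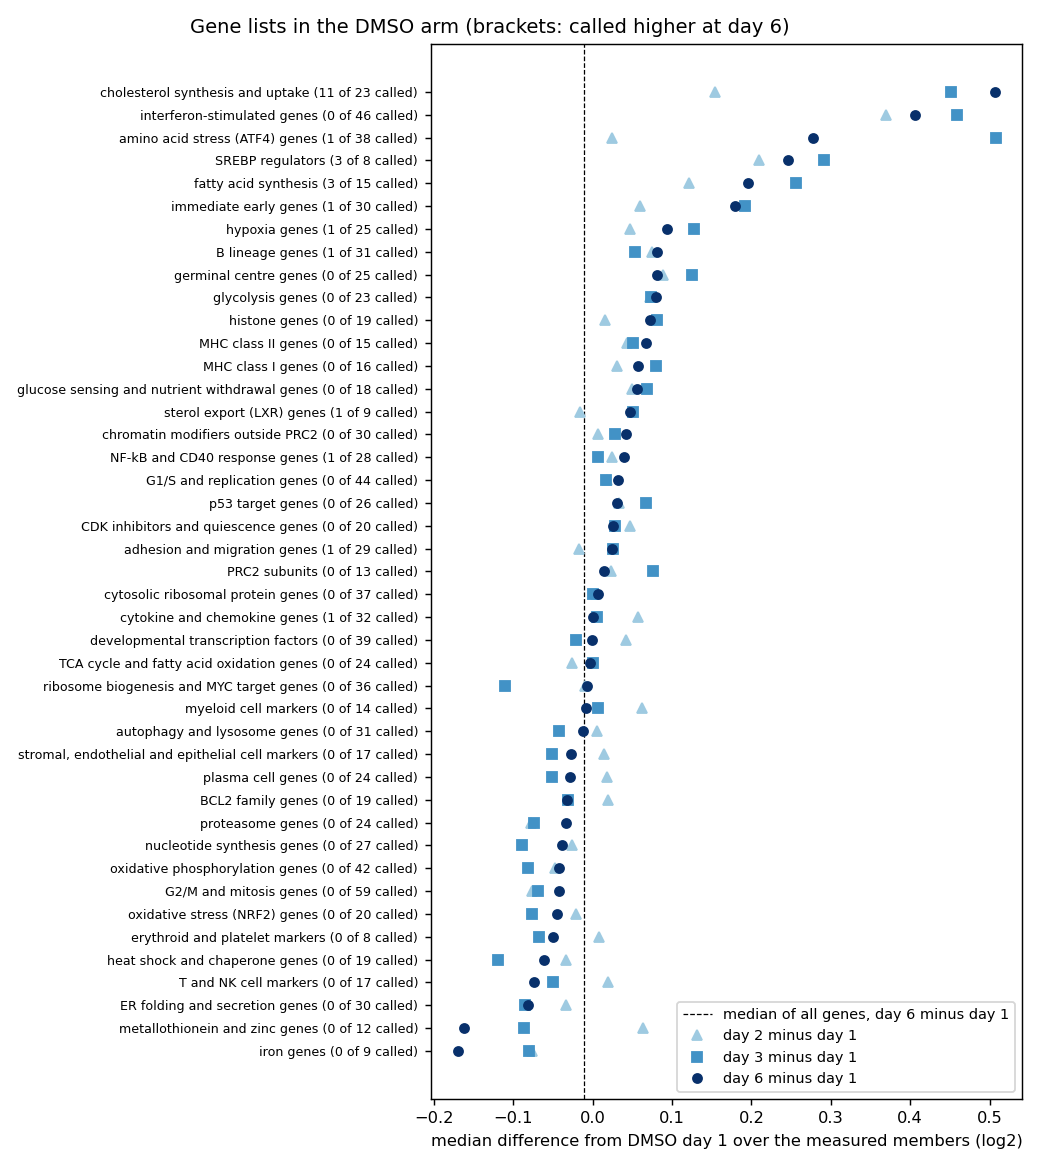
Each row is 1 of the 43 gene lists, with the median DMSO difference from day 1 over its measured members (log2) at day 2 (triangles), day 3 (squares) and day 6 (circles), and the dashed line at the median of all genes. In brackets stand the members called higher at day 6, and the cholesterol list is at the top with 11 of 23 and a median of 0.51.

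Genes of growth gave no calls. Of 44 G1/S and replication genes, none was called and the differences lay between -0.20 and 0.20, and of 59 G2/M and mitosis genes none was called and they lay between -0.37 and 0.11. At an unadjusted limma p under 0.05 the first list had 2 higher and 1 lower and the second 0 higher and 5 lower. Of 23 glycolysis genes none was called, and 22 had a positive difference (9209 of all 19775 genes). In that list 7 were higher at an unadjusted limma p under 0.05, and the median was 0.08. Of 36 ribosome biogenesis genes, 30 genes of endoplasmic reticulum folding and secretion, 42 oxidative phosphorylation genes and 13 PRC2 subunits none was called, with medians between -0.08 and 0.01 and with 1, 2, 0 and 1 members higher and 0, 3, 6 and 1 lower at an unadjusted p under 0.05. NQO1, an oxidoreductase of the NRF2 list, had the largest negative difference of any list member, -0.73 ± 0.18, and was not called (adjusted p = 0.0915). Over the 43 lists, 32 had no called member, and 22 of the 57 called genes belong to any list.

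The inhibitor arm gives the same interval in arrays that enter no DMSO difference, although they enter the shared estimate of each gene's spread. In a fit with a random block, arrays of both arms with the same day and replicate number correlated at 0.276. There 3347 genes (16.9%) rose and 4753 (24%) fell between day 1 and day 6. Of the 47 genes that rose under DMSO, 26 also rose with the inhibitor (26 of the 3347), 10 fell (10 of the 4753) and 11 were not called. Of the 10 that fell under DMSO, PLPP5 also fell, by 1.47, 4 rose and 5 were not called. The difference between the changes of both arms was called for 5277 genes (26.7%) of all, and for 27 of the 47 genes and 8 of the 10.

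The lipid genes split in that arm. Of the 16 that rose under DMSO, 6 rose with the inhibitor, 5 fell and 5 were not called, and the changes of the arms differed in 11. Over all genes, 16.9% rose with the inhibitor, 24% fell, and the changes of the arms differed in 26.7%. FASN measured 7.73, 7.73 and 7.75 at day 1 and 6.78, 6.73 and 6.91 at day 6 with the inhibitor, a change of -0.93 ± 0.13 (adjusted p = 2.53e-06), so that its change differed from that under DMSO by -1.86 ± 0.18 (adjusted p = 7.65e-08). FDPS changed by -0.64 ± 0.12 with the inhibitor (adjusted p = 0.000163), and its difference between the arms was -1.45 ± 0.17 (adjusted p = 9.52e-07). SCD changed by -0.28 ± 0.11, DHCR7 by -0.42 ± 0.15 and ACAT2 by -0.43 ± 0.14, and all 3 of these falls were called.

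MYLIP rose by 1.02 ± 0.13 with the inhibitor, and its difference between the arms was 0.06 ± 0.18 (adjusted p = 0.841). SC5D, MSMO1, LSS and STARD4 rose there by 0.62, 0.46, 0.42 and 0.45, with differences between the arms of 0.11, -0.29, -0.32 and -0.24 that were not called. INSIG1 rose by 0.34 ± 0.12 (adjusted p = 0.0333), with a difference between the arms of -1.11 ± 0.18 (adjusted p = 4.78e-05). SREBF1 and HMGCS1, at -0.10 ± 0.11 and -0.23 ± 0.12, were not called with the inhibitor, and their differences between the arms of -1.20 and -1.22 were. At day 3 with the inhibitor, INSIG1 measured 10.73, 10.99 and 11.03, SREBF1 7.41, 7.39 and 7.39, and HMGCS1 10.25, 10.45 and 10.43. In each of these genes every such array stood above every inhibitor array of day 1. The differences of day 6 from day 1 do not show these day 3 levels, which were not tested.

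TLR7, GPR18, IRAG2, CD53 and RHOH also rose with the inhibitor, with CD58 at 0.08 ± 0.10 not called (adjusted p = 0.573). TLR7 measured 4.36, 5.02 and 4.58 at day 1 and 9.52, 8.79 and 9.02 at day 6, a rise of 4.46 ± 0.27 that exceeded the rise under DMSO by 3.09 ± 0.39 (adjusted p = 2.51e-06). CD53 rose by 1.55 ± 0.13 and RHOH by 1.69 ± 0.14, both more than under DMSO. CCL4 rose by 2.82 ± 0.40 and GPR18 by 1.53 ± 0.17, with differences between the arms of 0.60 ± 0.56 and 0.52 ± 0.23 that were not called. RAB33A, NRM, COL23A1 and DUSP1 went the other way and fell with the inhibitor, with changes of -1.15, -1.08, -0.90 and -0.45.

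**Figure D5:**
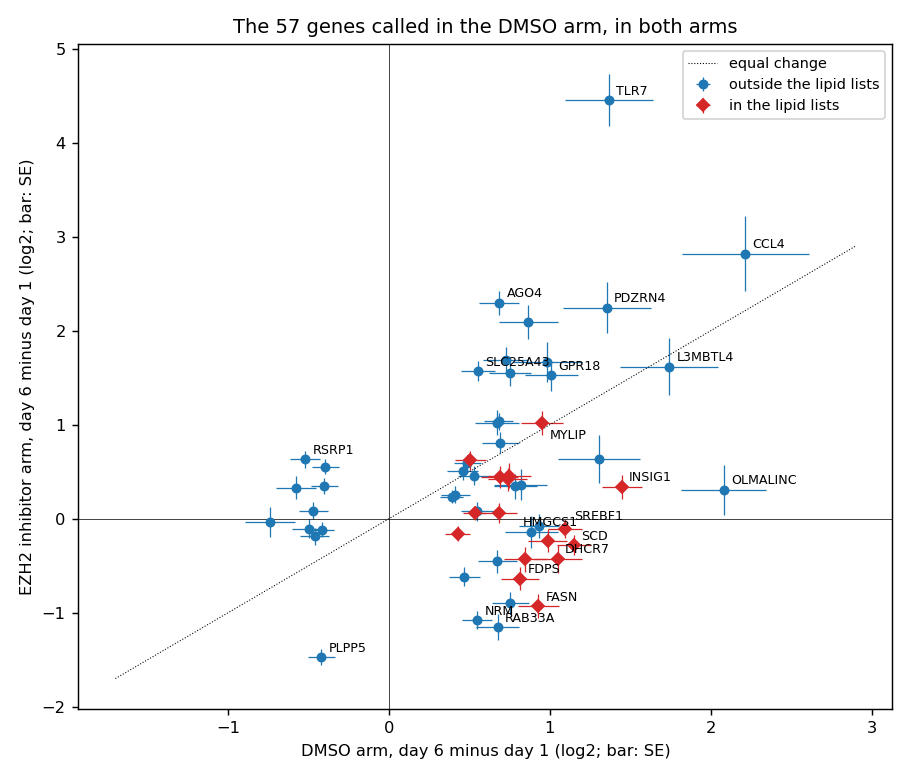
Each point is 1 of the 57 genes called under DMSO, with its DMSO day 6 minus day 1 difference (log2, horizontal) and the same difference in the inhibitor arm (log2, vertical), bars of 1 SE from the fit and a dotted line of equal change. Of the 16 lipid genes (red diamonds), FASN and FDPS are far below the line and MYLIP is close to it.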

How the data were processed

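RNA was extracted with Trizol and hybridised to 24 Affymetrix U133 Plus 2 arrays, per the labels' protocols. The authors deposited log2 values of 54613 probe sets made with RMA (the submitters' processing notes name R 2.10.1). The notes give no log base, and the range of 1.72 to 14.33 is that of RMA on the log2 scale. RMA makes the arrays' distributions alike and gives no detection calls, and the number of arrays limits the precision.

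Of the probe sets, 41091 have 1 gene symbol, 1801 several and 11721 none here. Each of 19775 genes took its brightest probe set, by the mean of all 24 arrays. limma 3.58.1 (R 4.3.3) was fitted with 1 coefficient for each of the 8 groups (16 residual and 5.22 prior degrees of freedom) and tested on simulated data. Its p-values set each difference against the spread between arrays within groups, estimated over all 8 groups. That spread may be technical in part. With 3 arrays a group, the smallest p of an exact permutation test is 0.1.

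Named are the 15 largest rises and the 15 largest falls among called genes without overlap of arrays (leaving out LOC, LINC, KIAA, FLJ, MIR, antisense and open reading frame symbols), up to 6 called members of each of 43 lists, EZH2, B cell markers and members of the leading lists. The comparison, lists and rule were chosen with earlier results of these data known. Other called genes were added after their values were seen. Promoters and neighbours are from RefSeq (GRCh38.p14). Alternatives were a replicate block, fewer arrays, another probe set rule, a filter on dim genes, scaling, the variance model, array weights and left-out arrays.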

Additional observations from a re-analysis of the deposited data

Results flagged for a closer look

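For 35 of the 57 genes called under DMSO, the change from day 1 to day 6 differed between the arms by limma's test of the difference of changes (adjusted p under 0.05). Over all genes this held for 5277 of 19775 (26.7%). The DMSO arrays that gave the calls enter this difference, so its size, its sign and the count of such genes are not independent of them. Values are the inhibitor change minus the DMSO change on the log2 scale.

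Among lipid genes the difference was -1.11 for INSIG1, -1.43 for SCD, -1.20 for SREBF1, -1.47 for DHCR7, -1.22 for HMGCS1, -1.86 for FASN, -1.28 for ACAT2, -1.45 for FDPS, -0.62 for IDI1, -0.47 for HSD17B7 and -0.59 for ACACA. All 11 were negative. The neighbouring genes OLMALINC and MMAB had -1.77 and -1.08.

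The difference was also negative for COL23A1 at -1.65, RAB33A at -1.83, DUSP1 at -1.13 and NRM at -1.63, which fell with the inhibitor, and for SYNGR3 at -1.01, MAP3K7CL at -1.03 and CD58 at -0.47, which were not called with it. Genes that rose more with the inhibitor were TLR7 at 3.09, CYSLTR1 at 1.23, CD53 at 0.79, RHOH at 0.97, AGO4 at 1.61, IRAG2 at 0.35 and SLC25A43 at 1.02.

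Of the genes that fell under DMSO, the difference was 0.95 for CFAP184, 0.75 for SLC35B3, 0.30 for WNT9B, 0.55 for METAP1D, 1.15 for RSRP1, 0.91 for ZNF547 and 0.70 for SIX4. PLPP5, which fell further with the inhibitor, had -1.05.

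Outside the genes compared, 13522 probe sets have several gene symbols or none here. In a fit of all 54613 probe sets, 21 of them were called higher and 3 lower at day 6 under DMSO.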

How the results depend on the processing

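No called gene or count reversed its direction under the alternatives run. Of 47 genes higher and 10 lower, the replicate number as a block over all 24 arrays gave 139 and 60, array weights 71 and 21, the fit of the 6 DMSO arrays 29 and 2, and these 6 arrays with the replicate block 73 higher. The fit of the 12 DMSO arrays gave 2 lower, and the genes left after the dimmest 40% were removed gave 16 lower. A minimum difference of 1 left 11 and 0. With all arrays numbered 1, 2 or 3 left out, 25, 7 and 7 genes were higher and 2, 0 and 0 lower. With 1 of the 6 arrays left out, counts ran from 21 to 33 higher and from 0 to 8 lower. The cholesterol list had 11 genes called higher, 7 in the fit of 6 arrays, and 1 and 2 with all arrays numbered 2 or 3 left out. The causes of these changes in the counts were not tested.

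The labels share replicate numbers between the days. Deviations of day 1 and day 6 arrays with the same number correlated at 0.16, 0.02 and 0.42 over genes. Day 6 array 1 correlated best with day 1 array 2 (0.28), and day 6 array 3 with day 1 array 3. The numbers were not taken to pair the samples, and whether arrays of 1 number share a feature was not tested. Of the 57 genes, 57 were kept with the replicate block, 25 with 6 arrays, 31 with 12 DMSO arrays and 38 when probe sets were averaged per gene. The inhibitor counts and the count of differences between the arms stayed within 1.5 times under the alternatives run for them.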
